A study of Mus musculus with 48 samples.

Results

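Lungs of 21-day-old mice with testes were compared with lungs of mice with ovaries in the FCG mouse model, in which the testis-determining gene Sry is carried on an autosome and gonad type is inherited apart from the sex chromosomes. XXF and XYF mice have ovaries and XXM and XYM mice have testes. The 24 postnatal day 21 (P21) lungs of the 48 in the series were used, 12 from mice with testes and 12 from mice with ovaries. Each group of 1 genotype and 1 treatment held 3 animals, kept in room air (RA) or exposed as newborns to hyperoxia at 95% oxygen (O2). All animals were C57BL/6J, the tissue was flash-frozen whole lung, and polyadenylated RNA was sequenced. The model limits what the comparison can show: Sry is read from a transgene in mice with testes, so the transgene and its insertion site go with the testes, and hormone levels are not part of the files. The animal numbered 34 (XXF, RA) is day 21 by its title, day 5 by its age field and day 1 by the heading of its count column, and was used as day 21. The labels name no litter, so p-values measure the spread between these animals.

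Conventional T cells carry an αβ antigen receptor that signals through the CD3 chains, and they leave the thymus as CD4 or CD8 cells in the first weeks of life before settling in the lung. Natural killer (NK) cells share several surface proteins with T cells but lack the receptor. Gonadal hormones act through the androgen and estrogen receptors, and testes can release androgens around birth, well before puberty.

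Library totals at P21 ranged from 8454116 to 30736349 counts in mice with ovaries and from 6042939 to 31348391 in mice with testes. The testes libraries were shallower in RA, with a median of 7613600 counts against 17495000, and not in O2, with a median of 20584000 against 19684000. Sry had 0 counts in all 12 lungs from mice with ovaries, and its level was between 0.195 and 1.51 CPM (counts scaled to library size) in XXM and between 0.229 and 0.485 CPM in XYM lungs. Xist was between 314 and 713 CPM in XX lungs and at most 1.14 CPM in XY lungs, and Uty was at least 12.3 CPM in XY and at most 0.292 CPM in XX lungs, so every library matched its labelled gonad type and sex chromosomes. One lung, animal 51 (XXF, O2), carried liver transcripts, with Alb at 3343 CPM against at most 9.87 CPM in the other lungs with ovaries. Another 5 lungs, animals 34, 35 and 36 (XXF, RA) and 37 and 40 (XXM, RA), stood apart with Mki67, a marker of dividing cells, at 107 to 117 CPM against 16.4 to 44.3 CPM in the other P21 lungs and 97.8 to 426 CPM at day 5. Their levels of the clock genes Nr1d1 and Tef, at most 40.9 and 138 CPM, were below those of all other P21 lungs, at least 54.3 and 205 CPM. In 2 genes chosen by their values, Hsd11b1 and Chil3, every P21 lung, that of animal 34 included, was above every lung of day 5. The lowest P21 levels were 234 and 137 CPM, and the highest day 5 levels 119 and 44.6 CPM. Transcripts of immature lymphocytes (Rag1, Rag2, Ptcra and Dntt) summed to more than 5 CPM in 8 lungs, 5 with ovaries and 3 with testes.

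The gonadal difference at P21 was narrow and went almost wholly one way. Of 17311 autosomal genes tested with chromosome type and treatment as blocking factors, 49 were lower and 2 were higher in mice with testes at an edgeR adjusted p under 0.05 (0.283% and 0.0116% of genes tested). With a minimum of 1.5-fold the counts were 46 and 2 (0.266% and 0.0116%), and at an unadjusted p under 0.05 1.77% of genes were lower and 1.69% higher. The median log2 fold change, testes over ovaries, was 0.00 over all genes tested and -1.15 over the 49. In 11 genes every lung with testes was below every lung with ovaries (0.0635% of genes tested), and in 0 genes the reverse held. Among the genes that fell were 6 chains of the αβ T cell receptor complex, 3 coreceptor genes and 12 genes of receptor signaling, and both genes that rose encode NK cell receptors. Without the 5 lungs of high Mki67, a check chosen after the data were seen, 38 genes were lower and 0 higher in 10 lungs with testes against 9 with ovaries. Of the 49 genes all were lower by sign in that fit and 27 were called, with Cd8a at -2.10 (edgeR adjusted p = 0.00051) and Trac at -1.37 (edgeR adjusted p = 0.0014). In whole lung, fewer cells of a type and less RNA per cell cannot be told apart.

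**Figure D1:**
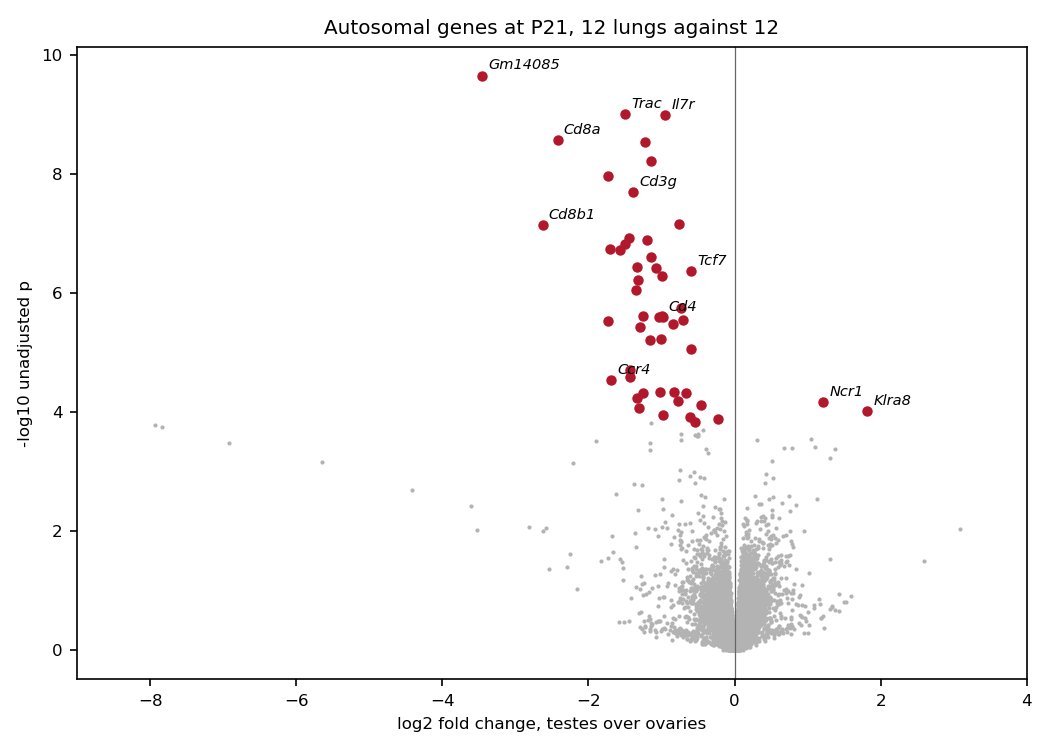
Log2 fold change, testes over ovaries (x axis), against −log10 of the unadjusted p (y axis) for each autosomal gene at P21, 12 lungs against 12; red points are the 51 genes called. The red points lie almost all on the left, from -3.46 for Gm14085 to -0.22 for Kbtbd11, and only Ncr1 and Klra8 are on the right.

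The chains of the T cell receptor complex, a set drawn up after values were seen, were lower in mice with testes in 6 of 7 genes tested. Trac, the constant region of the receptor α chain, had a lowest, median and highest level of 1.94, 2.58 and 4.37 CPM in mice with testes and of 5.30, 7.25 and 13.6 CPM in mice with ovaries. The groups did not overlap, and the log2 fold change was -1.50 ± 0.15 (SE, edgeR adjusted p = 6.2e-06), a level 2.82-fold lower. Cd3g, one of the invariant CD3 chains, had 2.34, 4.07 and 5.27 CPM in mice with testes and 5.19, 8.85 and 17.4 CPM in mice with ovaries. Here a single lung with ovaries, that of animal 52, reached into the range of the lungs with testes, and the log2 fold change was -1.39 ± 0.17 (edgeR adjusted p = 4.6e-05). Cd3d and Cd3e, the other CD3 chains of the same chromosome 9 cluster, changed by -1.44 ± 0.19 and -1.50 ± 0.21 on the log2 scale, with edgeR adjusted p = 0.00018 and 0.00019. The β chain constant regions Trbc1 and Trbc2 fell by 1.25 and 1.34, but 68.2% of the 25-base words of Trbc1 also occur in Trbc2, so how reads divide between them is uncertain. The ζ chain, Cd247, which NK cells also use, changed by -0.56 ± 0.15 and was not called (edgeR adjusted p = 0.22). Of 14 receptor gene segments tested, 13 were lower by sign and 6 were called, all lower, with a median log2 fold change of -1.28. Among them were the variable segments Trbv13-2 and Trbv12-2, at -1.44 ± 0.28 and -1.31 ± 0.28, whose reads can also be shared among near-identical segments.

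All 3 genes of the coreceptor set, also drawn up after values were seen, were lower in mice with testes. Cd8a, the CD8 α chain that marks cytotoxic T cells, was at 0.540, 1.19 and 2.91 CPM (lowest, median, highest) in mice with testes and at 4.62, 6.89 and 21.5 CPM in mice with ovaries. Its log2 fold change was -2.42 ± 0.26 (edgeR adjusted p = 1.0e-05), 5.36-fold lower, and no lung of one group reached the other. Cd8b1, the β chain, was at 0.324, 0.814 and 2.33 CPM against 2.84, 5.18 and 16.5 CPM and fell by 2.63 ± 0.34 on the log2 scale (edgeR adjusted p = 0.00012), again without overlap. Cd4, the coreceptor of helper T cells that some macrophages also carry, was at 3.12, 3.91 and 4.99 CPM against 4.65, 6.88 and 15.3 CPM. Its log2 fold change of -0.98 ± 0.16 was smaller than that of both CD8 chains, and the groups overlapped at the edge (edgeR adjusted p = 0.0016). The difference between the CD8 and CD4 changes was not tested.

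The highest CD8 levels came from lungs with immature lymphocyte transcripts: animals 35 and 34 had 21.5 and 13.6 CPM of Cd8a and 32.1 and 13.4 CPM of the summed Rag1, Rag2, Ptcra and Dntt. Both were also among the lungs of high Mki67. Animal 61 (XYF, O2) had 30.8 CPM of summed coreceptor genes, beside 53.3 and 32.4 CPM in animals 35 and 34, but only 0.394 CPM of the immature lymphocyte sum. The immature lymphocyte sum overlapped between the gonad groups, with a lowest, median and highest of 0.164, 2.14 and 12.5 CPM in mice with testes and 0.394, 2.30 and 32.1 CPM in mice with ovaries. Without the 8 lungs over 5 CPM, a check chosen after the data were seen, 22 autosomal genes were lower and 0 higher in 9 lungs with testes against 7 with ovaries. All 22 were among the 49. Cd8a was at -2.48 in that fit (edgeR adjusted p = 9.9e-05) and Trac at -1.61 (edgeR adjusted p = 0.00036). Ncr1 and Klra8, at 1.18 and 2.26, were no longer called.

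**Figure D2:**
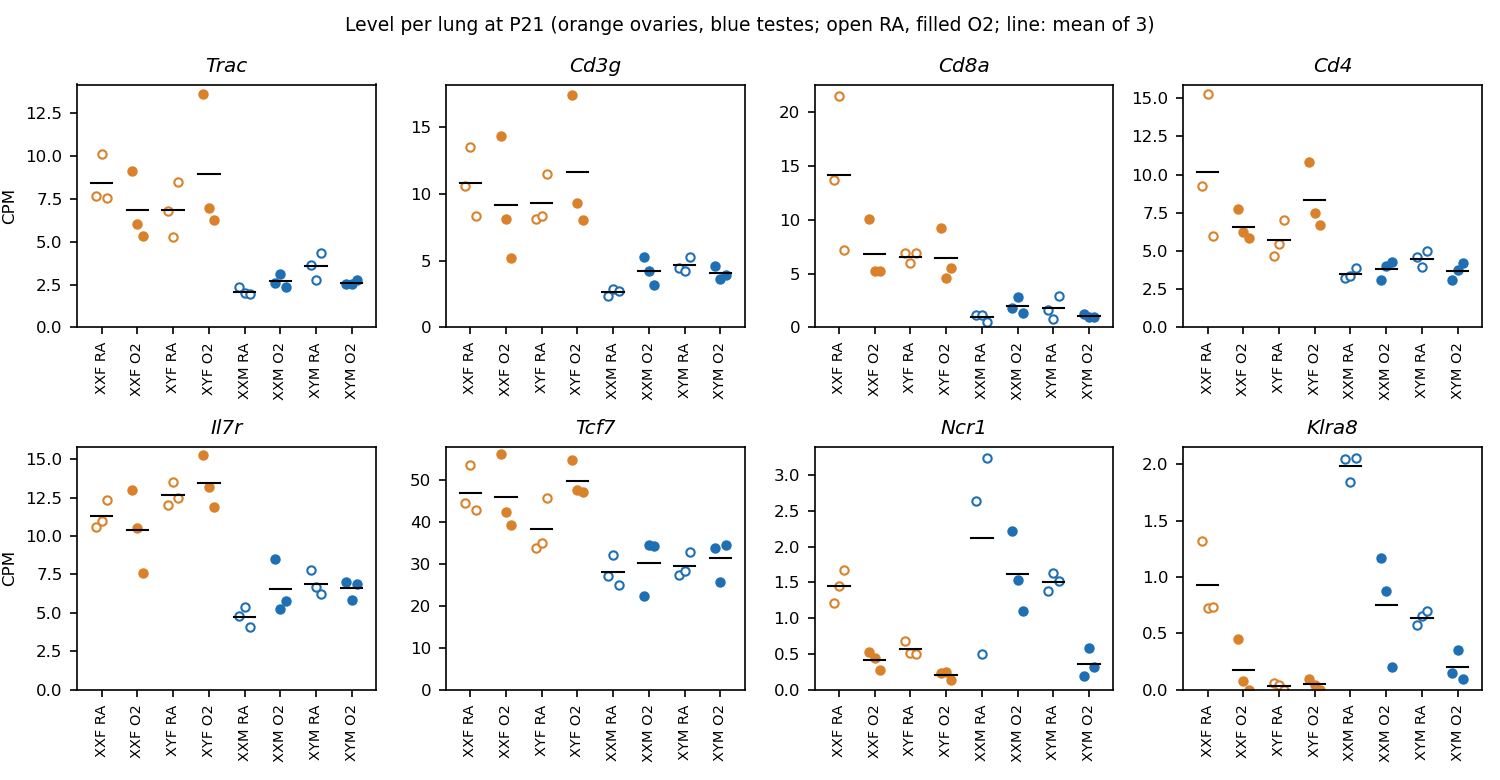
Level in CPM (y axis, linear from 0) of 8 genes in each of the 24 P21 lungs, by genotype and treatment; orange points are mice with ovaries, blue points mice with testes, open points RA, filled points O2, and black lines the mean of 3. For Cd8a all blue points lie below all orange ones, at 2.91 CPM or less against 4.62 CPM or more, while the groups overlap for Ncr1 and Klra8.

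The starts of 4 of these genes show what lies at the genes that fell. Each window runs from 250 bases before to 50 bases after the annotated start, read 5′ to 3′ on the gene's strand from RefSeq on GRCm38.p6, and capitals mark single recognition sites of the androgen receptor (TGTTCT or its complement AGAACA) or of the estrogen receptor (GGTCA or its complement TGACC). The windows are Cd8a at chr6:71373177-71373476 (plus strand), the neighbouring pair Cd3g at chr9:44980382-44980681 (minus) and Cd3d at chr9:44981536-44981835 (plus), and Il7r at chr15:9529827-9530126 (minus).
Cd8a: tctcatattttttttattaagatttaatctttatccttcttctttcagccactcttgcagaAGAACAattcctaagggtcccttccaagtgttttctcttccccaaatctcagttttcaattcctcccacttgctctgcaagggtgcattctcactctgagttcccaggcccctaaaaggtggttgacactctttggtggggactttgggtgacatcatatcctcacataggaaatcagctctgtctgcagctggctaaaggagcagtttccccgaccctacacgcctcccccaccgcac
Cd3g: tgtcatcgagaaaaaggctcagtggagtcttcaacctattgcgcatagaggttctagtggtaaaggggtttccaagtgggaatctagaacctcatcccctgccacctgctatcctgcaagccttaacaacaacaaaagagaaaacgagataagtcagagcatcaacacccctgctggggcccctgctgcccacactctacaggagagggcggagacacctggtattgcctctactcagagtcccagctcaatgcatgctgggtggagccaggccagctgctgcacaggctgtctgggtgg
Cd3d: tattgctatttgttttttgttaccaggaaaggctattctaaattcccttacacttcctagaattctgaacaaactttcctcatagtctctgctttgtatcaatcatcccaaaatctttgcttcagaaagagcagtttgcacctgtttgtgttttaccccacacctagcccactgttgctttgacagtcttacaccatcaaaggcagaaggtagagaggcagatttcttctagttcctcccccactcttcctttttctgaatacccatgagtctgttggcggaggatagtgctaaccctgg
Il7r: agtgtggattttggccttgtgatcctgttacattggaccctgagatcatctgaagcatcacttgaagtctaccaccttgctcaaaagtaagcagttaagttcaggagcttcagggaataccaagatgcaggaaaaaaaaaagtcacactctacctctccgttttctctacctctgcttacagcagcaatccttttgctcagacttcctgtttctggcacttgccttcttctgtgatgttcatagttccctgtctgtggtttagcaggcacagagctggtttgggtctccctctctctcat
Of the 49 genes that fell, 30 had a window in the table. A single androgen receptor site lay in 9 of the 30 (30%), against 21.3% of 27025 genes and 15.4% of the 12282 tested autosomal genes with a window. A single estrogen receptor site lay in 12 (40%), against 43.6% and 43.05%. The differences between these shares were not tested. Inverted pairs of these sites spaced by 3 bases, the full form of either element, lay in 0 of the 30 and in 0.0111% and 0.074% of all genes. Among the printed windows only that of Cd8a held a single site.

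Of 17 genes of signaling proteins downstream of the receptor, 12 fell. The set was drawn up after values were seen, and 0.283% of all autosomal genes tested were called lower. All 17 members were lower by sign, with a median log2 fold change of -1.01. Lat, the adaptor at the membrane, was at 2.34, 4.67 and 6.28 CPM (lowest, median, highest) in mice with testes and at 6.47, 9.10 and 17.2 CPM in mice with ovaries, a log2 fold change of -1.19 ± 0.16 (edgeR adjusted p = 0.00018). Its groups did not overlap, nor did those of Cd5, an inhibitory receptor, at -1.08 ± 0.16. Lck, the kinase that starts the signal, was at 5.69, 7.27 and 10.8 CPM against 9.68, 15.1 and 28.0 CPM and changed by -1.15 ± 0.16 (edgeR adjusted p = 0.00026). Themis, which acts in thymic selection, fell by 1.70 and Cd6 by 1.57. Zap70, the kinase recruited to the CD3 chains, changed least among those called, by -0.60 ± 0.11 (edgeR adjusted p = 0.0044). The members not called were Prkcq, Ptpn22, Fyn, Rasgrp1 and Lcp2, between -0.29 and -0.13, and several of these also act in other blood cells.

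Of 9 costimulatory genes tested, 3 fell: Cd28, the main costimulatory receptor, by 1.35, Icos by 0.99 and Cd96 by 1.03. Ctla4 and Cd27 were at -1.16 ± 0.28 and -0.74 ± 0.17 and missed the threshold (edgeR adjusted p = 0.085 and 0.079), and Cd2, which NK and B cells also express, was at -0.06 ± 0.18. Among 11 transcription factors tested, 2 fell. Tcf7, the factor TCF1 of naive T cells, was at 22.2, 30.04 and 34.4 CPM against 33.8, 44.99 and 56.1 CPM, a log2 fold change of -0.60 ± 0.09 (edgeR adjusted p = 0.00039). Bcl11b, which holds T cell identity, fell by 1.33 with no overlap between the groups, whereas Gata3 and Zbtb7b were at 0.06 and 0.02. Il7r, the receptor for the survival cytokine IL-7, was at 4.10, 6.04 and 8.53 CPM against 7.62, 12.2 and 15.2 CPM, and its log2 fold change of -0.95 ± 0.10 had an edgeR adjusted p of 6.2e-06. Every lung with ovaries but that of animal 52, at 7.62 CPM, was above every lung with testes. Ccr4, a homing receptor, fell by 1.69 on low counts of 34 in all lungs with testes and 138 in all with ovaries. These 7 sets of T cell genes, the NK set and the set of group 2 innate lymphoid cells were drawn up after values were seen, so their counts describe the 49 genes and are no independent support.

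Among the genes called, the largest change by size was that of Gm14085 on chromosome 2 (122484941 to 122528040), a neighbour of the nucleoside transporter gene Slc28a2. Gm14085 had 23 counts over the 12 lungs with testes, 4 of which had none, and 316 over the 12 with ovaries. Its level was at most 0.399 CPM in mice with testes and at least 0.733 CPM in mice with ovaries, and the log2 fold change was -3.46 ± 0.33 (edgeR adjusted p = 4.0e-06). Slc28a2 itself was at -0.34 ± 0.16 and was not called (edgeR adjusted p = 0.99), and 57.0% of the 25-base words of the Gm14085 transcript also occur in Slc28a2, so the split of reads between them is uncertain. A further 19 genes that fell stood in none of the lists. Izumo1r, a folate receptor of regulatory and anergic T cells, fell by 1.73 without overlap, as did Ms4a4b, a membrane protein of T and NK cells, by 1.15. Thy1, a surface protein of mouse T cells and some fibroblasts, was at 7.03, 10.0 and 15.0 CPM against 13.99, 17.9 and 36.5 CPM, with a log2 fold change of -0.99 ± 0.15 (edgeR adjusted p = 0.00045). Art2b, an ADP-ribosyltransferase of T cells, fell by 1.74, and Ctsw, a cathepsin of cytotoxic cells, by 0.78. The smallest change among called genes was that of Kbtbd11, at -0.22 ± 0.05. The others were Ms4a6b, Adgrg5, Plcxd2, Ipcef1, Nsg2, Apol7e, 2010016I18Rik, A630023P12Rik, Fam78a, Btbd11 and Gbp8, between -1.44 and -0.45, with the 2 variable segments given above.

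Genes of γδ T cells, immature lymphocytes and B cells gave 1, 3 and 0 calls, against 0.295% called of all autosomal genes tested. Of 6 γδ T cell genes tested only Tcrg-C2, a γ chain constant region, was called, at -1.03 ± 0.21 (edgeR adjusted p = 0.021). Trdc, the δ chain constant region, was at -0.05 ± 0.21. Of 8 thymocyte genes tested, all 8 were lower by sign and Cd8b1, Themis and Tcf7 fell, each also expressed by mature T cells. Rag1 and Dntt, which mark immature cells, were at -0.05 ± 0.67 and -0.33 ± 0.61. Of 9 B cell genes 0 were called and the median was 0.31, with Ms4a1 at 0.49 ± 0.25 and Cd79a at 0.36 ± 0.24. The summed B cell level was between 266 and 999 CPM in mice with testes and between 228 and 692 CPM in mice with ovaries. Of 61 immunoglobulin segments tested, 49 were higher by sign and 0 were called.

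Of 19 NK cell genes tested, 2 rose in mice with testes, against 0.0116% of all autosomal genes tested. This set too was drawn up after values were seen, so its counts are no independent support. By sign 15 were higher and 4 lower, and the median log2 fold change was 0.67. Ncr1, the NK receptor NKp46, was at 0.195, 1.45 and 3.24 CPM against 0.128, 0.505 and 1.68 CPM, a log2 fold change of 1.21 ± 0.25 (edgeR adjusted p = 0.027). The groups overlapped widely, in RA and in O2 alike. Klra8, the Ly49H receptor, was at 0.0960, 0.674 and 2.05 CPM against 0, 0.0647 and 1.31 CPM, at 1.82 ± 0.39 (edgeR adjusted p = 0.036). Its reads may be shared with similar genes of its cluster, which was not measured. With each of the 24 animals left out in turn, Ncr1 was called in 17 fits and Klra8 in 8. Both calls were also lost without the 5 lungs of high Mki67, and without animals 51 and 53, the latter having the lowest scaling factor, when 48 genes were lower. Without the 5 lungs Ncr1 and Klra8 were at 1.30 and 2.45, larger than in all lungs (edgeR adjusted p = 0.22 and 0.075). Without animals 51 and 53 they were at 1.08 and 1.61 (edgeR adjusted p = 0.091 and 0.16). Gzma, a granule protease of NK and cytotoxic cells, was at 1.05 ± 0.25 and missed the threshold (edgeR adjusted p = 0.077), as did Klrb1c, the NK1.1 antigen, at 0.79 ± 0.19 (edgeR adjusted p = 0.10). Nkg7 and Klrd1, which CD8 T cells also express, were at -0.48 ± 0.23 and -0.28 ± 0.19. The other genes nearest to a call on the higher side were Mgl2, CT010467.1, Cntn1, Hist1h4i, 1810010D01Rik, Gm24187 and Adora2b, between 0.28 and 0.68, with edgeR adjusted p from 0.079 to 0.47.

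**Figure D3:**
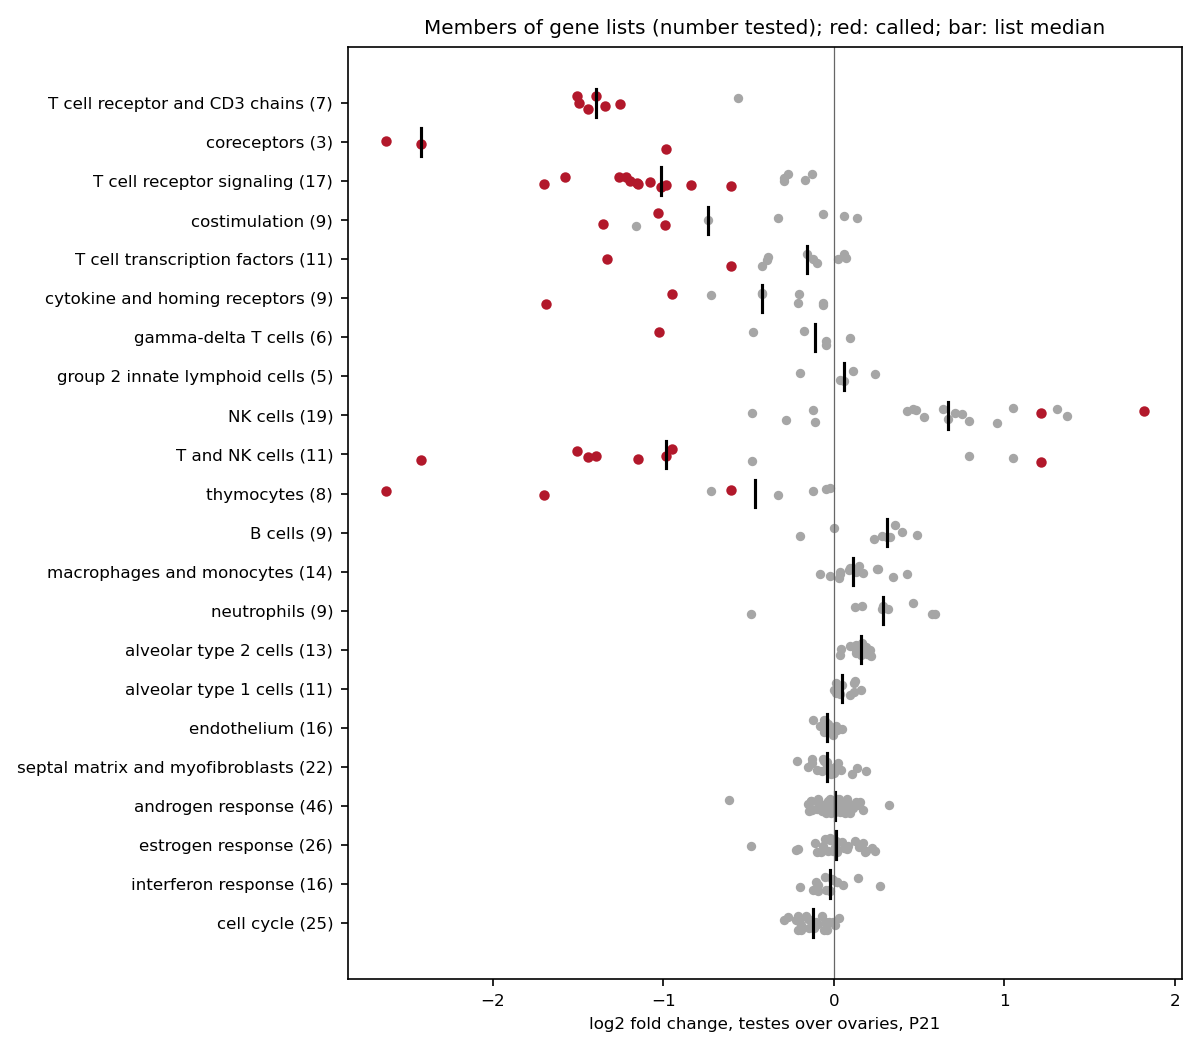
Log2 fold change, testes over ovaries at P21 (x axis), of each tested member of 22 gene lists (y axis, with the number tested); red points were called, grey points were not, and black bars are list medians. The receptor chains, coreceptors and signaling proteins lie left of 0 with medians of -1.39, -2.42 and -1.01, and NK genes lie mostly right of 0. The lung cell and hormone response lists lie near 0, with all alveolar type 2 and type 1 genes right of it.

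Of 30 gene lists of hormone responses, lung cell types and other tissues, 28 held 0 called genes. Over all autosomal genes tested 0.295% were called, so most lists of 6 to 46 genes would hold 0 calls. The counts of 0 here and below therefore say little about the lists. The androgen response list had 46 members tested, with a median of 0.01 and a range from -0.61 to 0.33. Fkbp5, a target of androgen and glucocorticoid receptors, was at -0.09, and Tmprss2, a target in prostate, at 0.04. The estrogen response list had 26 tested with a median of 0.01, and in it Pgr, the progesterone receptor, was at 0.22 ± 0.13 and Greb1 at 0.17 ± 0.15. Among 26 genes of steroid receptors and steroid metabolism the median was -0.01, with Esr1 at -0.27 ± 0.24 and Nr3c1 at -0.01 ± 0.05. The glucocorticoid list of 15 had a median of -0.14, the growth hormone and IGF list of 17 of -0.02, and the imprinted growth genes, 20 of them, of -0.02. The smallest edgeR adjusted p in these 6 lists was 0.66, for Bcl2 at -0.21 ± 0.07, which does not show that the groups were alike.

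Structural lung genes had small changes, and by fold change the epithelial and mesothelial lists leaned higher in mice with testes. The 13 alveolar type 2 genes were all higher by sign with a median of 0.16, of which Sftpc, a surfactant protein, was at 0.22 ± 0.10 and Lpcat1 at 0.17 ± 0.07. Of these 13, 5 were higher at an edgeR unadjusted p under 0.05, against 1.69% of all genes tested. All 11 alveolar type 1, 10 ciliated and 6 mesothelial genes were higher by sign, as were 9 of 11 club and secretory cell genes. The ciliated, mesothelial and club medians were 0.14, 0.14 and 0.12, with 0 calls, and no list was tested as a set. The median summed level of the type 2, ciliated, mesothelial and club lists was also higher with testes. That of the type 1 list was lower, at 9023 CPM against 9158 CPM, though its highest sum was 15798 CPM against 10302 CPM. The 11 alveolar type 1 genes, 16 endothelial genes and 22 septal matrix genes had medians of 0.05, -0.04 and -0.04. Macrophage and neutrophil genes had median log2 fold changes of 0.11 and 0.29 and no calls, with S100a8 at 0.60 ± 0.37. Their median summed levels went the other way, at 710 and 159 CPM with testes against 772 and 164 CPM with ovaries. The 16 interferon response genes had a median log2 fold change of -0.02. Lists of neighbouring tissue spread far more between single lungs. Skeletal muscle genes summed to between 15.4 and 8017 CPM in mice with testes and between 10.8 and 3499 CPM in mice with ovaries, with a median log2 fold change of 1.30 and 0 of 12 called. Liver genes had a median log2 fold change of -5.65 and 0 of 7 called, and their sum was at most 17.1 CPM in mice with testes but reached 5716 CPM in animal 51 with ovaries. The genes that the study itself had named, a list chosen on these samples, gave 0 calls among 10 tested. Peg3 was at -0.22 ± 0.16, Nr1d1 at 0.48 ± 0.30 and Rsad2 at -0.12 ± 0.27. The study picked them for large changes by gonadal or chromosomal sex at either age, or for immune pathways. Its comparisons were of hyperoxia within a genotype or between single genotypes, unlike the pooled comparison here. The part of liver or muscle transcripts in the T cell result was not tested. Without animals 51 and 53, 47 of the 49 genes were still called. That fit kept the lungs with the highest muscle sums, animals 37 and 35 at 8017 and 3499 CPM, so it does not bear on muscle.

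Calls were spread over 18 of the 19 autosomes, with at most 8 on a single chromosome (chromosome 6, which holds the CD8, CD4 and receptor β genes). Chromosome 3, which carries the Sry transgene in this model, held 2 calls among 948 genes tested, or 0.211%, and a median log2 fold change of -0.01. These were Sh2d2a, an adaptor of T cell signaling, at -0.83 ± 0.17 and 2010016I18Rik at -0.67 ± 0.14 (edgeR adjusted p = 0.021 for both).

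The gonadal difference was then taken within each treatment and each chromosome type, 6 lungs against 6 in each, with the spread estimated from all 8 groups. In RA 18 autosomal genes were called and in O2 18 (0.104% of genes tested in each), in XX 28 (0.162%) and in XY 12 (0.0693%), and every one was lower in mice with testes. All 49 genes were lower by sign in each of the 4 settings, with medians of -1.21 in RA, -1.07 in O2, -1.23 in XX and -1.04 in XY. The settings share animals, so these counts are not independent of each other or of the pooled result. In all 4 settings 10 genes were called, among them Gm14085, Trac, Il7r, Cd8a, Ms4a4b, Izumo1r, Cd3g, Ms4a6b and Cd8b1. Cd8a was at -2.86 ± 0.33 in RA and -2.19 ± 0.30 in O2, and at -2.84 ± 0.32 in XX and -2.21 ± 0.31 in XY (edgeR adjusted p = 0.00061, 0.0022, 0.00043 and 0.0031). When each setting was fitted on its own 12 lungs, 15 genes were called in RA, 0 in O2, 1 in XX and 6 in XY.

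Whether the gonadal difference itself changed with treatment or chromosome type was tested by interaction contrasts. For O2 minus RA edgeR called 0 genes, DESeq2 0, and 516 had an unadjusted p under 0.05, with a smallest edgeR adjusted p of 1.00. For XY minus XX edgeR called 0 genes and DESeq2 42, with 743 at an unadjusted p under 0.05 and a smallest edgeR adjusted p of 0.14. Among the 49, an unadjusted p under 0.05 was reached by 2 genes for treatment, Ccr4 and Btbd11, and by 3 for chromosome type. Those were Cd28 (-1.90 in XX and -0.91 in XY), Bcl11b (-1.77 and -0.96) and Art2b (-1.16 and -2.36), with adjusted p in edgeR of 0.73, 1.00 and 0.96 for the difference.

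**Figure D4:**
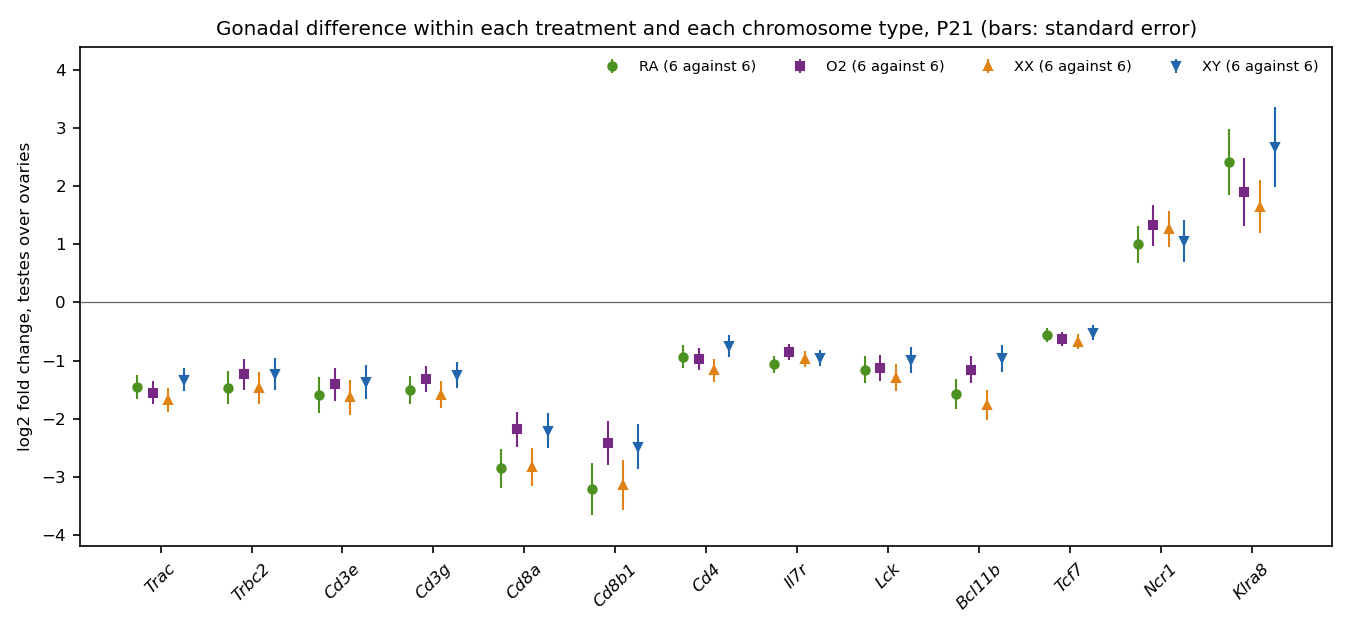
Log2 fold change, testes over ovaries (y axis), with its standard error as bars, for 13 genes (x axis) within RA, O2, XX and XY lungs at P21, 6 against 6 in each. The 11 T cell genes are below 0 and both NK genes above 0 in all 4 settings, and Cd8a runs from -2.86 in RA to -2.19 in O2.

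The same comparison in the 24 lungs of day 5 (P5), from other animals, gave 18 autosomal genes called, all lower in mice with testes (0.106% of 17056 tested). That count rested on single animals: it was 1 when any of 13 animals was left out and 105 without animal 29. Thy1 was the only gene called at both ages, at -0.53 ± 0.10 at P5 (edgeR adjusted p = 0.037), where it was at 3.44, 6.75 and 9.94 CPM against 5.82, 8.91 and 11.6 CPM with wide overlap. Others, chosen by their values, were Trim59 at -0.48 ± 0.08, Incenp at -0.45 ± 0.08 and Gda at -0.60 ± 0.11. All 25 cell cycle genes were lower by sign at P5, with a median of -0.34 and 1 called, and 23 of 25 were lower at P21 with a median of -0.12 and 0 called. The 5 P21 lungs of high Mki67 came from 3 mice with ovaries and 2 with testes, and their part in the P21 values of the cell cycle genes was not tested.

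Of the 49 genes that fell at P21, 44 were tested at P5, 39 were lower there by sign and the median was -0.57, against 51.2% lower and a median of -0.00 over all P5 genes. An unadjusted p under 0.05 with a lower level was reached by 25 of the 44, against 5.61% of all. These shares over all genes were not matched for level. Some P5 lungs with testes lacked low-level transcripts: animals 22 and 23 (XXM, O2) had 0 CPM of summed receptor α and β variable segments. The lowest P5 levels of Il7r and of Il1rl1, not one of the 49, were 0 CPM with testes and 1.41 and 2.57 CPM with ovaries. The part of this in the P5 values was not tested. Cd8a at P5 was at 0, 0.869 and 2.45 CPM in mice with testes and at 0.416, 1.76 and 4.32 CPM in mice with ovaries, a log2 fold change of -1.22 ± 0.41 that was not called (edgeR adjusted p = 0.27). Trac at P5 was at -0.61 ± 0.25 (edgeR adjusted p = 0.40) and Izumo1r at -1.55 ± 0.41 (edgeR adjusted p = 0.12). The summed receptor and CD3 chains had medians of 22.1 CPM in mice with ovaries and 12.7 CPM in mice with testes at P5, and of 54 and 24.7 CPM at P21. At P21 the lowest sum with ovaries, 36.4 CPM, was above the highest with testes, 33.9 CPM, while at P5 the ranges of 14.1 to 39.8 CPM and 9.57 to 24.4 CPM overlapped. Of the 19 NK genes only 7 could be tested at P5, and 0 were called, all 7 being lower by sign. Ncr1 and Klra8 were not among them, and the P5 medians of Ncr1 were 0.316 CPM in mice with testes and 0.302 CPM in mice with ovaries.

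A test of the age difference, in 1 fit of all 48 lungs, called 5 autosomal genes (0.0277% of 18065), and Tcf7 was the only one of the 49 among them. The count was 0 without animal 18, 22, 53 or 55, 1 without animal 1, 51 or 54, and 0 with 1 surrogate variable. Its gonadal log2 fold change was -0.60 at P21 and -0.06 at P5, a difference of -0.53 ± 0.10 (edgeR adjusted p = 0.046). At P5 Tcf7 was at 37.6, 63.6 and 75.0 CPM in mice with testes and 51.3, 62.5 and 81.6 CPM in mice with ovaries, with the medians close together. For the other genes of the 49 a difference between ages was not shown.

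**Figure D5:**
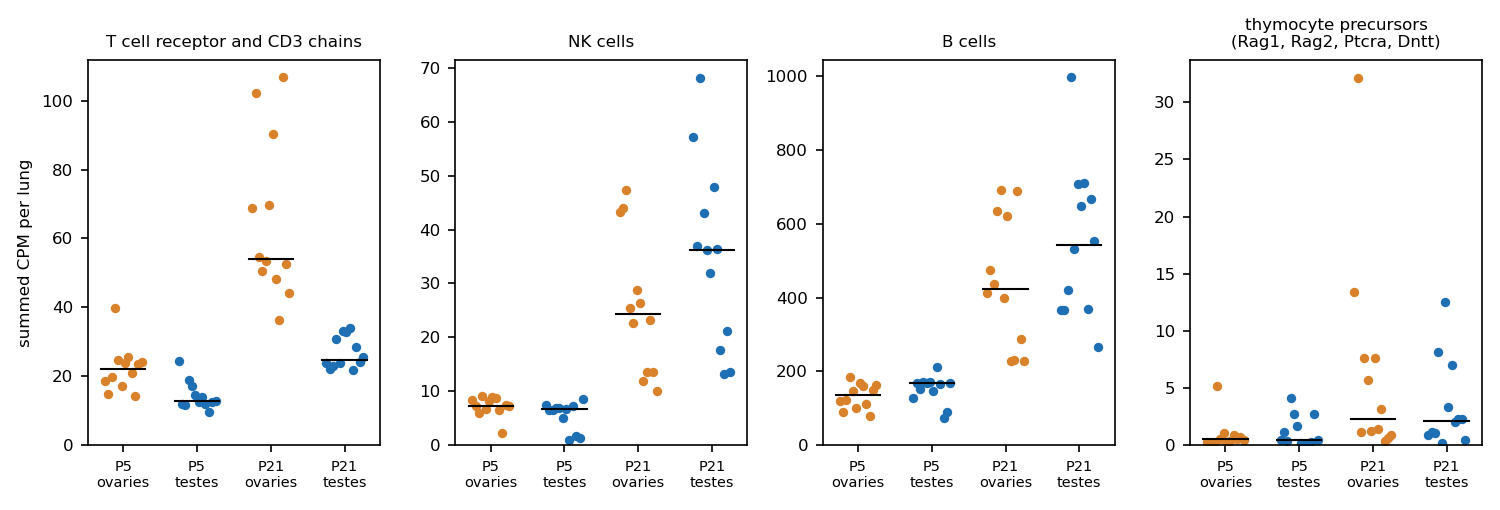
Summed CPM per lung (y axes, linear from 0) of 4 gene sets at P5 and P21, orange for mice with ovaries and blue for mice with testes, 12 lungs each, with black lines at medians. Receptor and CD3 chains separate at P21, at 36.4 CPM or more against 33.9 CPM or less, while NK, B cell and immature lymphocyte sums overlap.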

How the data were processed

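Counts of whole reads per gene for 48 lungs were deposited as 1 table. Per the labels, libraries came from a stranded kit with oligo-dT enrichment and were sequenced as 76 bp pairs, and the submitters' processing notes name HISAT2, featureCounts and mm10. Their versions, the annotation release and the strand setting were not stated there. Without a stated strand setting, reads of overlapping antisense genes cannot be told apart.

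The deposited counts were fitted with edgeR 4.0.16 (R 4.3.3): filterByExpr by group, TMM scaling and the quasi-likelihood test of gonad type, with chromosome type and treatment as factors, in the 24 P21 lungs. P-values were adjusted by Benjamini-Hochberg over all genes tested, and 0.05 was the threshold. A model with a mean for each of the 8 groups gave the fold changes within treatments and chromosome types and the interactions. P5 lungs were fitted alike, and all 48 lungs jointly for age. CPM are counts scaled by the filtered, TMM-scaled library total. Gene positions are from GENCODE vM21 (GRCm38), which held 52403 of 52550 genes.

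The members and lists were chosen with earlier results of these data known. Named genes are the called genes with the smallest p (up to 15 a direction, or 10 by p where fewer than 10 were called) or largest change, called list members, 3 high members of each list, genes named by the study, genes called at both ages or in a difference, and those on chromosome 3; others named in the text were chosen after their values were seen. Replicates of a group differed by more than counting noise in all 24 pairs (chi-square per degree of freedom at least 5.03). The steps were tested on simulated data. Alternatives were DESeq2 1.42.0, limma voom 3.58.1, 1 surrogate variable from sva 3.50.0, other scaling and filters, and each animal left out in turn. Some genes are not reported here.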

Additional observations from a re-analysis of the deposited data

Results flagged for a closer look

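The gonadal difference (testes over ovaries) differed between P21 and P5 in 5 autosomal genes by a test of the difference itself in all 48 lungs (edgeR). That count rested on single animals: it was 1 without animal 51 and 0 without animal 18, 22, 53 or 55. For Tcf7 the difference of log2 fold changes was -0.53 ± 0.10 (adjusted p = 0.046), and each P21 lung with ovaries but that of lowest level, at 33.8 CPM, was above the highest lung with testes, at 34.4 CPM. For Camk4, a calcium-dependent kinase, it was -0.69 ± 0.14 (adjusted p = 0.049), with medians of 4.84 CPM with testes and 7.14 CPM with ovaries at P21 and of 19.7 and 15.6 CPM at P5. The other 3 encode liver secreted proteins: Apoa1 at -8.86 ± 1.75, Serpina1b at -9.75 ± 1.94 and Fgb at -10.28 ± 2.05 (adjusted p = 0.046 each). Their medians were at most 0.281 CPM in both P21 groups, and the highest P21 levels, 392, 121 and 126 CPM, were in lungs with ovaries, where animal 51 also had Alb at 3343 CPM.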

How the results depend on the processing

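The 49 genes that fell stayed negative under every alternative in which they were tested. DESeq2 called 48 of them, the RLE factors 48, no filter 45, a mean of at least 1 CPM 38 of the 40 tested, 1 surrogate variable 47, the 8 group means 47 and limma voom 43, and 38 were called with each of the 24 animals left out. Counts lower, higher, and both with 1.5-fold were 307, 293, 117 and 42 at an unadjusted p under 0.05. Higher genes numbered 9 (7 with 1.5-fold) by DESeq2, 1 (1) with a mean of at least 1 CPM, 1 (1) by limma voom, 0 (0) without animals 51 and 53, 0 (0) without the 5 lungs of high Mki67 and 0 (0) without the 8 lungs with immature lymphocyte transcripts, where 22 (22) were lower. With 1 animal left out, lower genes numbered 41 to 62 (40 to 58 with 1.5-fold) and higher genes 0 to 5 (0 to 5): 0 without animal 40, 41, 51 or 54, 1 without 34, 35, 36, 37, 42, 43, 46, 47, 53, 59 or 63, 4 without 61 and 5 without 39. Calls in RA, O2, XX and XY were 537, 659, 1034 and 441 at an unadjusted p, and by DESeq2 29, 39 and 32 in RA, O2 and XY. They were 29 in O2 and 20 in XY with no filter, and 10 and 6 with a mean of at least 1 CPM. In fits of 12 lungs alone they were 0 in O2, 1 in XX and 6 in XY. With 1 animal left out they ran from 11 to 26 in RA (11 without 42), 6 to 31 in O2 (6 without 60, 7 without 61, 9 without 55 or 59, 10 without 58, 11 without 53, 31 without 52), 12 to 31 in XX (12 without 35, 13 without 40, 14 without 37, 17 without 55, 18 without 49) and 7 to 14 in XY (7 without 41 or 60). The interaction O2 minus RA had 516 genes at an unadjusted p and 0 in every fit with an animal left out, and XY minus XX had 743, with 42 by DESeq2, 16 with no filter and 0 to 5 with an animal left out (5 without 58). At P5 the 18 calls became 1749 at an unadjusted p, 179 by DESeq2, 111 with no filter and 144 with 1 surrogate variable. With 1 animal left out they ran from 1 (without 1, 2, 6, 7, 9, 11, 15, 18, 19, 25, 26, 30 or 31) over 2 (5, 17) and 4 (3), and 29 (22), 36 (13), 45 (10), 52 (21), 83 (27), 87 (23) and 101 (14), to 105 (29). The 5 calls for the age difference became 716, 12 by DESeq2, 15 with no filter and 0 with 1 surrogate variable, and 0 to 20 with 1 animal left out: 0 without 18, 22, 53 or 55, 1 without 1, 51 or 54, and 20 without 49. The causes of these shifts were not tested. No paired analysis was possible because animal numbers are not shared between groups. Low-count genes such as Klra8, Ccr4 and the variable segments are limited by depth.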
